A study of Mus musculus with 4 samples.

Results

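Gpr65 and Phlda1 are a pair of mouse genes that were both first described in dying T cells, where they were named T cell death-associated genes. Their RNA was measured on 4 Affymetrix arrays of double-positive thymocytes, immature T cells that carry CD4 together with CD8 on their surface. The members are all probe sets, the groups of short array probes that read a transcript, whose only annotated gene is Gpr65 or Phlda1. The 2 genes, of 8251 measured, have 1 such probe set each, among 12488 on the array and 10833 that name a single gene. No probe set annotated to several genes names either of them.

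C3H/HeN females, 4 weeks old, were the source, and microbeads were used for the sort. Culture of both groups lasted 3 h, at a density of 5.0E+06 cells per ml and in a volume of 3 ml. The medium group received 0.1% PBS, and the dexamethasone group received 1E-07 M dexamethasone, a synthetic glucocorticoid, in PBS. Each group has 2 arrays, which the series design calls technical replicates of the extraction, so the spread below is between extracts and may be technical. The study asked how dexamethasone alters molecules that promote or restrain apoptosis in these cells. Both genes were chosen by their difference between the dexamethasone and medium arrays, so their own values are a description and are given without a test.

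Gpr65, also called TDAG8, encodes a receptor on the cell surface that responds to extracellular protons. Histidines on its outer face take up protons when the surroundings become acid, and the receptor then acts through the G protein Gs to raise cyclic AMP. One of its synonyms in RefSeq is Dig1. Phlda1, also called TDAG51, encodes an intracellular protein with a pleckstrin homology-like domain. It was found in T cell hybridomas as a gene needed for death after stimulation of the T cell receptor, and protein kinase C and ERK signals are known to induce it. Thymocytes at the double-positive stage are known to die readily when exposed to glucocorticoids.

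The window around the annotated start of Gpr65, the gene whose RNA went from background to a measured level, is shown because it is the stretch nearest to where its transcription begins. It spans 250 bases before to 50 after the start and comes from RefSeq on build GRCm38.p6, an assembly of C57BL/6J mice. It lies on chromosome 12 at chr12:98268385-98268684, plus strand, and capitals mark a CCAAT box read on the opposite strand. The set of promoter windows used here holds none for Phlda1.
Gpr65: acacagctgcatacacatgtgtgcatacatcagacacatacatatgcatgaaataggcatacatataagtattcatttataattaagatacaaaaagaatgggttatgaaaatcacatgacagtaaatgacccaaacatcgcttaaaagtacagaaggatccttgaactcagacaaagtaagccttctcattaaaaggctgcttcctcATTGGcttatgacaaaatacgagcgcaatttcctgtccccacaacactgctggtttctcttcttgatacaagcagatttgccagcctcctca

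Both strands of this window were searched for 6 motifs. The CCAAT box (letters CCAAT) matched 1 time, beginning 42 bases before the start, and 37.4% of the 32851 promoter windows in the table hold it. The letters TATAAA matched 1 time on the opposite strand, beginning 175 bases before the start, against 13.6% of windows. The palindromic glucocorticoid response element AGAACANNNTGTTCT matched 0 times (0.00913% of windows), and its AGAACA arm alone 0 times (19% of windows), the first motif containing the second. The cyclic AMP response element TGACGTCA and the AP-1 site TGANTCA also matched 0 times, against 1.79% and 7.81% of windows. A match describes letters in this window, and a missing match says nothing about sites elsewhere.

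Signals are MAS5 values on a linear scale, which summarise the probes of a probe set. Background is a signal of 14, the highest value among 19 probe sets for bacterial and yeast transcripts, whose median was 1.85. Median signals were 21.1 to 22.8 on the 4 arrays. The actin control, which reads RNA integrity as the ratio of its 3′ to its 5′ signal, gave 1.06 to 1.16 on the medium arrays and 1.24 to 1.40 on the dexamethasone arrays. The 9 hybridization controls, transcripts added before hybridization, were 1.37-fold higher on average on the dexamethasone arrays. The actin ratio and the hybridization controls move with the groups, and their part in the results below was not tested. A second integrity control, the same ratio for Gapdh, overlapped: 0.84 to 0.85 in medium against 0.82 to 0.90 with dexamethasone. The 2 integrity controls thus differ in whether they separate the groups. As a check of the treatment, Fkbp5, a known glucocorticoid receptor target that encodes a co-chaperone of the receptor, gave 625 ± 49.6 in medium against 2267 ± 162 with dexamethasone (mean signal ± SD, n = 2).

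Gpr65 went from background to a measured level with dexamethasone. Its signal was 5.6 on medium replicate 1 and 5.9 on medium replicate 2, and 46.2 on dexamethasone replicate 1 and 53.4 on dexamethasone replicate 2. Both medium values lay under the background and both dexamethasone values above it, with no overlap between the groups. The background is set by the highest control, and the medium values exceeded 94.7% and 89.5% of the 19 controls on their arrays. Group signals were 5.75 ± 0.21 in medium against 49.8 ± 5.09 with dexamethasone (mean ± SD, n = 2). Because the medium values are at background, only a lower bound can be given, and it holds at the deposited scaling. The level with dexamethasone was at least 3.56-fold higher by the group mean, 3.3-fold by replicate 1 and 3.81-fold by replicate 2. The bound was not computed with the arrays set to equal hybridization controls, which were higher on the dexamethasone arrays. In bulk RNA, a higher level per cell and a larger share of expressing cells cannot be told apart.

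Phlda1 was measured in medium and lower with dexamethasone. Its signal was 109.7 on medium replicate 1 and 104.2 on medium replicate 2, and 27.5 on dexamethasone replicate 1 and 20.9 on dexamethasone replicate 2. All values were above background, and the groups did not overlap. Group signals were 107 ± 3.89 in medium against 24.2 ± 4.67 with dexamethasone (mean ± SD, n = 2), a ratio of means of 4.42 in favour of medium. With dexamethasone the signals were only 1.96 and 1.49 times the background of 14, against 7.84 and 7.44 times in medium.

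**Figure D1:**
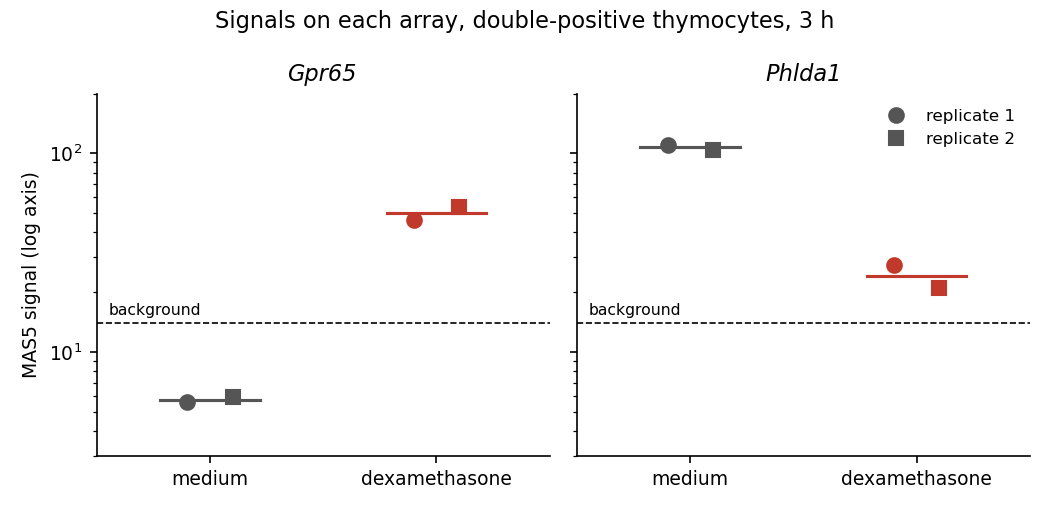
MAS5 signal (log axis) of Gpr65 and Phlda1 on each of the 4 arrays, with circles for replicate 1, squares for replicate 2, bars for group means and a dashed line at the background of 14. Gpr65 lies under the line in medium, at 5.6 and 5.9, and above it with dexamethasone, while Phlda1 drops from above 100 to 27.5 and 20.9 and stays above the line.

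Relative to the other genes of each array, the genes crossed in opposite directions. All 8251 genes were ranked, each by the brightest of its probe sets. The signal of Gpr65 exceeded that of 24.7% and 25.7% of genes on the medium arrays and of 52.8% and 55.5% on the dexamethasone arrays. The signal of Phlda1 exceeded that of 68% and 66.9% of genes on the medium arrays and of 44.8% and 41.1% on the dexamethasone arrays. These are places in an order of probe sets with different brightness and do not compare the amounts of the transcripts.

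On the scale of log2(signal + 1), used for all differences below, Gpr65 differed by 2.91 ± 0.23 and Phlda1 by -2.11 ± 0.17 (dexamethasone minus medium, ± SE from the limma fit). The value of Gpr65 rests on medium signals under background and on the 1 added before the logarithm, so it is neither a bound nor an exact size. For Gpr65 the smallest difference between a dexamethasone and a medium array was 2.77 and the largest 3.04, while arrays of a group differed by at most 0.20. For Phlda1 the size of this difference ran from 1.88 to 2.34, and the dexamethasone arrays differed from each other by 0.38 and the medium arrays by 0.07. The spread of Phlda1 thus came mostly from the dimmer dexamethasone arrays.

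For comparison with other genes, only the 5582 whose mean log2 signal exceeded 3.47 were kept, which is the 40th percentile of all probe sets other than controls. Gpr65 passed this filter through its dexamethasone arrays, since its mean log2 signal was 2.75 in medium and 5.66 with dexamethasone. Phlda1 passed with 6.75 and 4.64. Ordered by their log2 difference, Gpr65 stood in place 4 from the top and Phlda1 in place 2 from the bottom. The place of Gpr65 rests on that same value of 2.91. Over all 5582 genes, 0.914% were higher by at least 1 on the log2 scale and 0.555% were lower by at least 1. Groups did not overlap for 50.4% of genes, so a lack of overlap alone is common with 2 arrays a group. The choice of the genes fixes their place, and nothing is read from it.

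**Figure D2:**
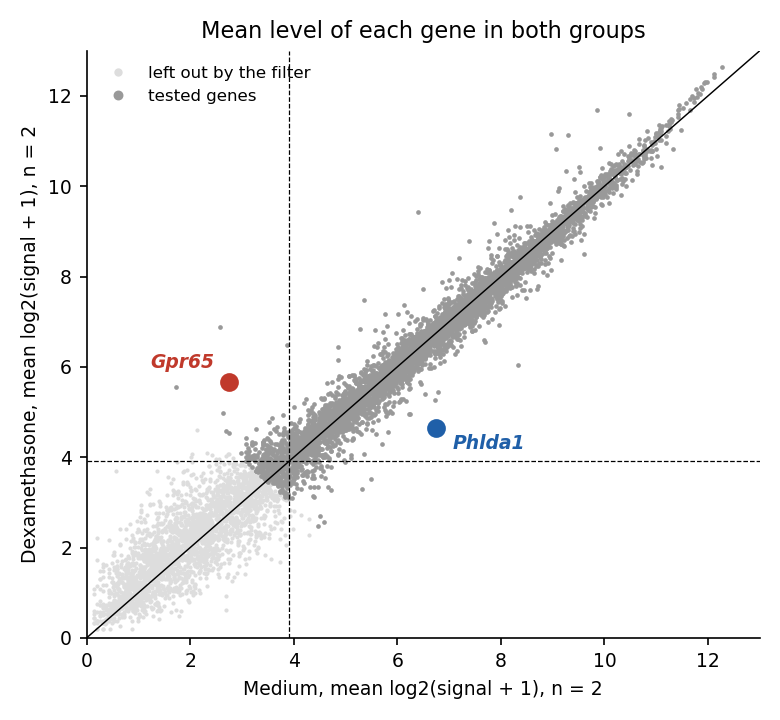
Mean log2(signal + 1) of each gene in medium (horizontal) and with dexamethasone (vertical), n = 2 arrays a group, with genes left out by the filter in light grey, the diagonal of equal signal, and dashed lines at the background of 14. Gpr65 lies above the diagonal at 2.75 and 5.66, left of the background line for medium, and Phlda1 lies below the diagonal at 6.75 and 4.64.

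The size of both differences depended on how dim values were handled. The sign was the same under all 12 other settings, which is no sign of stability: 2 of them, the mean of probe sets and the replicate block, give the same value by construction, and leaving out an array cannot turn the sign of groups that do not overlap. For Gpr65, adding 16 in place of 1 before the logarithm gave 1.59, adding 32 gave 1.11, and raising all values under 14 to 14 gave 1.76. For Phlda1, adding 16 gave -1.62 and adding 32 gave -1.31. Spike-in scaling, which sets the arrays to equal hybridization controls, moved both genes downwards, to 2.49 for Gpr65 and -2.56 for Phlda1. It scales all signals of an array alike before the 1 is added, so dim genes shift somewhat less on the log2 scale. The median of the tested genes, at 0.00, went to -0.45. Leaving out any array gave 2.81 to 3.01 for Gpr65 and -2.30 to -1.92 for Phlda1.

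**Figure D3:**
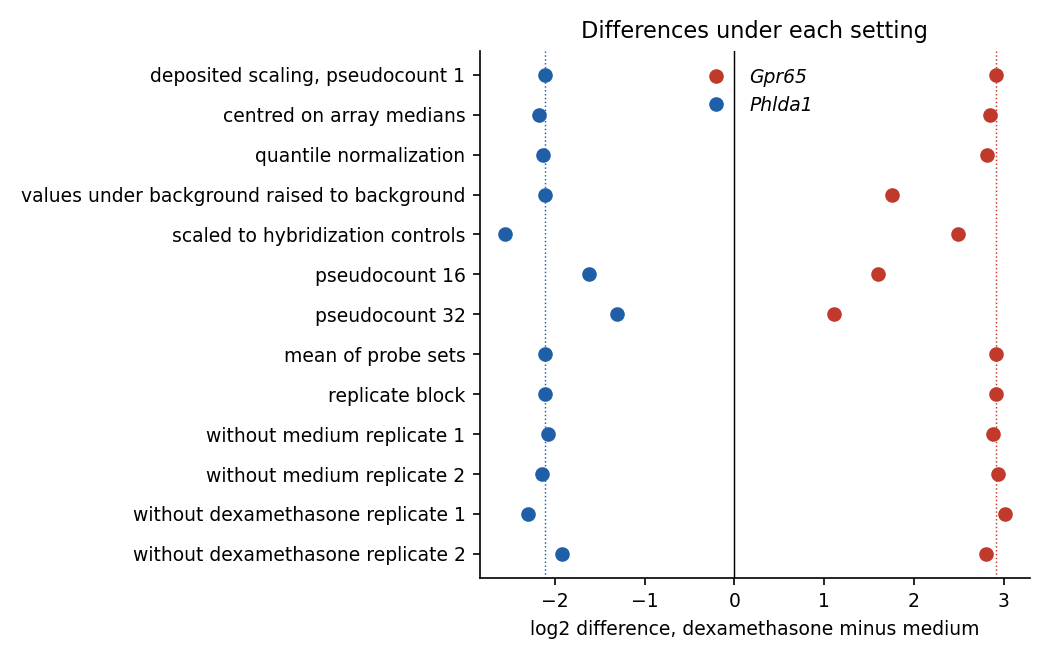
Log2 difference, dexamethasone minus medium, of Gpr65 (red) and Phlda1 (blue) under the deposited scaling and 12 other settings, with dotted lines at the values reported. Gpr65 stays between 1.11 and 3.01 and Phlda1 between -2.56 and -1.31, so neither reaches 0.

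The genes whose profile over the 4 arrays was most like that of each gene were found by the root mean square difference of log2 signals, each centred on its medium mean. They are like it by construction and differ in the same comparison. Distances to Gpr65 use its medium signals under background: with values under 14 raised to 14, an alternative added after seeing the data, Eipr1 moved to place 197, Nfil3 to 33 and Ppp1r21 to 13, and Zfp36l2, Ddit4 and Tnfsf11 were nearest. For Gpr65 the nearest was Eipr1, which takes part in endosomal sorting, at a distance of 0.11, with signals of 80.3 and 86.6 in medium and 682.4 and 704.2 on the dexamethasone arrays. Next was Nfil3, a basic leucine zipper repressor of transcription, at 0.21, with 13.3 and 14.1 in medium and 80.6 and 98.7 with dexamethasone. The medium signals of Nfil3 were close to background, like those of Gpr65. Another Nfil3 probe set differed by 1.25 against 2.62 for the one compared. Ppp1r21 followed at the larger distance of 0.51, with signals of 510.6 and 486.8 in medium and 2386.4 and 2214.1 on the dexamethasone arrays.

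For Phlda1 the nearest was Smtn, which encodes the cytoskeletal protein smoothelin, at a distance of 0.19. Its signals were 47.3 and 31.6 in medium and 9.9 and 7.8 with dexamethasone. Myoz1, which encodes a calcineurin-binding protein of muscle, lay at 0.20, with 28.6 and 18.6 in medium and 5.6 and 4.3 with dexamethasone. Both of these genes reached background with dexamethasone, which Phlda1 did not. With values under 14 raised to 14, Id3 was nearest, Smtn moved to place 2 and Myoz1 to 78, and Runx1 stood in place 3. Id3, which blocks E proteins and is induced by T cell receptor and ERK signals, lay at 0.25, with 327 and 315.2 in medium and 59.4 and 70 with dexamethasone.

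Other genes around both members were tested with limma over all 5582 genes, two-sided, with Benjamini-Hochberg adjustment. These p-values treat the arrays as independent and cover only the spread between extracts, which may be technical. A gene is said to have risen or fallen only at an adjusted p under 0.05. Over all genes, 3.91% passed, with 105 rises and 113 falls, and 1104 had an unadjusted p under 0.05. The 9 lists of genes around Gpr65 and Phlda1 hold 209 genes without the pair, of which 146 had a probe set and 110 were tested. Of these 110, 4 rose and 7 fell, 10%, with a median log2 difference of -0.01 against 0.00 for all genes. The groups did not overlap for 43.6% of them. The direction of all 11 passing genes held in all 14 alternatives, which is no sign of stability. Their groups do not overlap, so leaving out an array cannot turn the sign. Settings that change only the filter, the variance trend or the replicate block keep the same difference by construction. Only Emb and Id3 passed without each array in turn, and 6 of the 11 were lost whichever array was left out.

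Among the proton-sensing receptors related to Gpr65, Gpr132, a receptor of lymphocytes and macrophages, was the only other with a probe set. Its signals were 31.2 and 30.8 in medium and 34.1 and 35.2 with dexamethasone. It differed by 0.16 ± 0.16 and did not pass (limma adjusted p = 0.653), and with spike-in scaling the difference was -0.29. Gpr132 was thus measured above background in both groups, while Gpr65 was above it with dexamethasone only.

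In the pathway from Gs to cyclic AMP and protein kinase A, 22 of 46 listed genes were tested, of which 1 rose and 1 fell. The median log2 difference was 0.00. Akap12, a scaffold that anchors protein kinase A, rose from 187 ± 10.1 to 297 ± 13.3 (0.66 ± 0.08, limma adjusted p = 0.0115). Adcy6, an adenylyl cyclase that makes cyclic AMP, fell from 211 ± 4.38 to 148 ± 6.86 (-0.51 ± 0.08, limma adjusted p = 0.0290). Neither passed whichever array was left out (limma adjusted p 0.0715 to 0.106 for Akap12 and 0.0977 to 0.193 for Adcy6). With spike-in scaling Akap12 did not pass (limma adjusted p = 0.366, the highest over 14 alternatives, from 0.00686). Gnas, which encodes the Gs protein alpha subunit itself, differed by 0.08 ± 0.08 at signals of 2378 and above and did not pass. Gnas, Creb1 and Prkar1b are outside the rule for named genes and were chosen after their values were seen. Gnas and Creb1 are each read from the brightest of 3 probe sets and Prkar1b from the brighter of 2, and the others are not given. Creb1, a transcription factor that protein kinase A activates, was at 23.9 ± 1.34 and 34.8 ± 4.67. Prkar1b, a regulatory subunit of the kinase, was at 40.8 ± 11.5 and 16.5 ± 7.14, and neither of these passed.

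Of the other Gs-coupled receptors, 3 of 14 were tested and Ptger4, a receptor for prostaglandin E2, fell. Its signals were 103.8 and 121.9 in medium and 74 and 61.3 with dexamethasone (-0.73 ± 0.14, limma adjusted p = 0.0481). This call was lost whichever array was left out (limma adjusted p 0.102 to 0.248). The difference between Gpr65 and Ptger4 was not tested.

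Genes that set the pH around and inside cells are listed because protons are the ligand of Gpr65. Of 26 listed, 9 were tested, with 1 rise, 3 falls and a median of -0.15. Emb, which encodes embigin, a partner of lactate and proton transporters, rose from 166 ± 9.26 to 440 ± 12.6 (1.40 ± 0.08, limma adjusted p = 0.000704). Another Emb probe set read 0.4 and 0.4 in medium and 0.8 and 4.9 with dexamethasone, all at background, and with the mean of probe sets the call was lost (limma adjusted p = 0.0807). Car2, a carbonic anhydrase, fell from signals of 92.7 and 90 to 35.4 and 47.2 (-1.14 ± 0.16, limma adjusted p = 0.0203). Of the 4 fits that leave out an array, Car2 passed only in the one without dexamethasone replicate 2 (limma adjusted p 0.0319 to 0.164). Slc16a1, the lactate and proton transporter MCT1, fell (-0.77 ± 0.15, limma adjusted p = 0.0457). Slc4a2, an exchanger of chloride and bicarbonate, completes the passing genes of this list and was named after its values were seen (-0.56 ± 0.09, limma adjusted p = 0.0235). Calls for Slc16a1 and Slc4a2 were lost whichever array was left out (limma adjusted p 0.0978 to 0.240 and 0.0615 to 0.174).

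The relatives of Phlda1 were dim. Phlda3, a p53 target whose pleckstrin homology domain competes with Akt for membrane lipids, had signals of 16.6 and 17.2 in medium and 15.7 and 25.9 with dexamethasone. It did not pass (0.24 ± 0.29, limma adjusted p = 0.700), and the difference was -0.19 with spike-in scaling and -0.10 without dexamethasone replicate 2. Phlda2, an imprinted gene known from the placenta, was at background on all arrays, with signals from 1.5 to 8.2, and was not tested. Phlda1 was therefore the only PHLDA gene well above background in medium.

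The signals that induce Phlda1 run from the T cell receptor through protein kinase C, Ras and ERK. In this list 20 of 33 genes were tested, and Dusp2, a nuclear phosphatase that inactivates ERK, was the only one to pass. It rose from signals of 144.3 and 111.8 to 238.6 and 245.9 (0.93 ± 0.13, limma adjusted p = 0.0191). Of the 4 fits that leave out an array, Dusp2 passed only in the one without medium replicate 1. With spike-in scaling the limma adjusted p was 0.0501, and over 14 alternatives it ran from 0.00749 to 0.129. The median of the list was 0.01. Rasgrp1, which activates Ras downstream of the T cell receptor and is outside the rule for named genes, was at 67.2 ± 0.57 in medium and 46 ± 6.51 with dexamethasone and did not pass.

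The list of immediate-early genes, many of which ERK signals induce as they do Phlda1, also holds related factors such as Elk1, Elk3 and Ets1. Not every member is known to be induced by ERK, so the list is no readout of that signal. Of its 16 tested genes, 2 fell and 0 rose. Id3 fell by 2.30 ± 0.11 on the log2 scale (limma adjusted p = 0.000373). Ets2, an ETS transcription factor, fell from 574 ± 16.5 to 331 ± 10.2 (-0.79 ± 0.07, limma adjusted p = 0.00330). This call was lost without medium replicate 2 and without the variance trend (limma adjusted p = 0.0730 for the latter). The lowest limma adjusted p of the 14 alternatives, 4.07e-09, came with spike-in scaling, under which the median of all tested genes was -0.45. The median of the list was -0.10 and 12 of the 16 were lower, against 2781 of all 5582 genes. The 12 include differences far inside their SE, such as those of Junb (-0.0049 ± 0.26) and Fosb (-0.0056 ± 0.27), so the count of signs overstates a lean. The groups did not overlap for 6 of the 16, or 37.5%, against 50.4% of all genes. Nr4a1, which encodes the nuclear receptor Nur77 known from thymocyte deletion, was named after its values were seen. Its signals were 38.3 and 30.9 in medium and 19.8 and 20.3 with dexamethasone (-0.75 ± 0.20, limma adjusted p = 0.106), and it did not pass. Egr1, a zinc-finger factor named likewise and read from the brighter of 2 probe sets, differed by 0.00 ± 0.19 and did not pass.

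**Figure D4:**
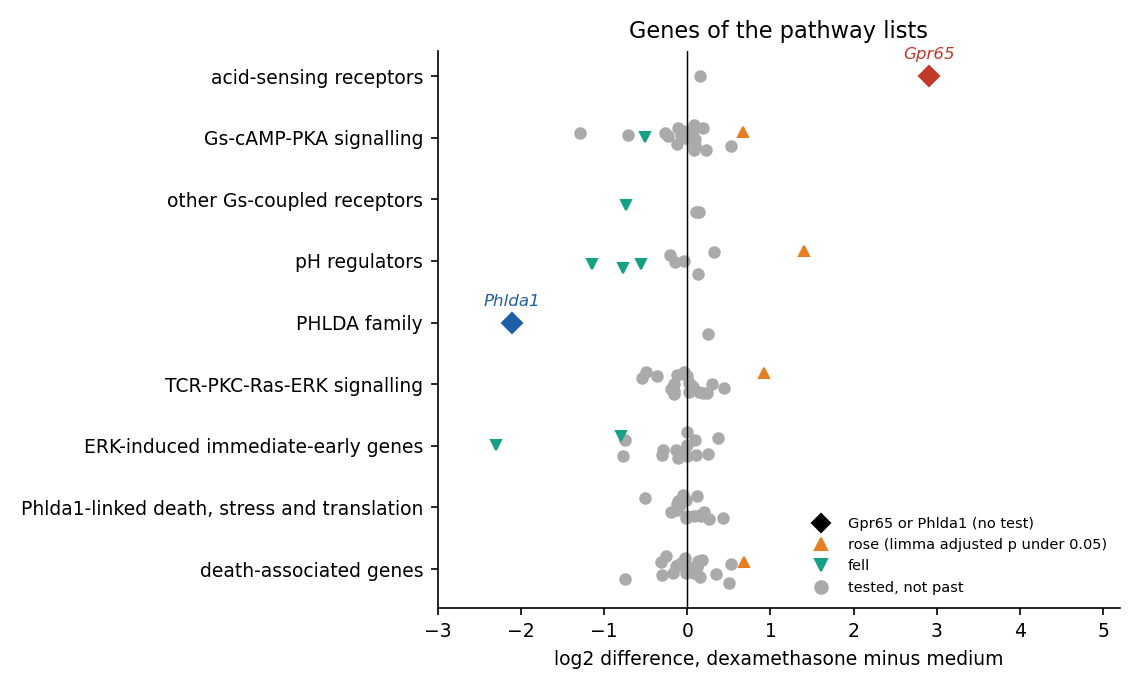
Log2 difference, dexamethasone minus medium, of each tested gene in the 9 lists, 1 row a list with vertical scatter for legibility, triangles for genes that rose or fell at a limma adjusted p under 0.05, and diamonds for Gpr65 and Phlda1, which carry no test. Gpr65 lies at 2.91 and Phlda1 at -2.11, with Id3 farther left at -2.30, and among the other tested genes only Prkar1b, Car2 and Emb differ by more than 1.

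Genes tied to Phlda1 in death, stress and translation gave 0 passing genes of 17 tested in limma, with 2 at an unadjusted p under 0.05 and a median of -0.01. Fas, the death receptor whose expression Phlda1 was first reported to support, was at 126 ± 9.76 in medium and 126 ± 29.8 with dexamethasone. It differed by -0.02 ± 0.17 and did not pass (limma adjusted p = 0.968), and Fasl, which encodes its ligand, was at background on all arrays. Both were named after their values were seen. The largest differences of the list were those of Igf1r, the receptor for insulin-like growth factor 1 (-0.50 ± 0.13, limma adjusted p = 0.0969), and Hspa5, a chaperone of the endoplasmic reticulum (0.42 ± 0.09, limma adjusted p = 0.0564). Hspa5 passed under 3 alternatives, namely quantile normalization, the replicate block and the 60th percentile filter (limma adjusted p = 0.0463, 0.0438 and 0.0395). With spike-in scaling Hspa5 differed by -0.031, and Igf1r passed at -0.96 (limma adjusted p = 0.000102).

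Of the other genes named for an association with cell death, 22 of 39 were tested, 1 rose and 0 fell, with a median of -0.01. Pdcd4, which restrains translation initiation and is known as a tumour suppressor, rose from signals of 452.1 and 531.8 to 857.6 and 722.7 (0.68 ± 0.11, limma adjusted p = 0.0298). This call was lost whichever array was left out and with spike-in scaling (limma adjusted p = 0.254, the highest over 14 alternatives, from 0.0192).

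The nearest measured genes on the chromosome are given for position alone, from the order of genes in RefSeq. Galc, which encodes the lysosomal enzyme that degrades galactosylceramide and psychosine, lies directly beside Gpr65 and was at background on all 4 arrays, with signals from 1.9 to 6.4. Ptpn21, on the other side, was at background too, with signals from 4 to 10.9. Farther out, Sel1l differed by -0.11 ± 0.16 and Zc3h14 by 0.10 ± 0.07, and neither passed. Around Phlda1, the direct neighbours Nap1l1 and Krr1 differed by 0.19 ± 0.07 and 0.21 ± 0.11, and Csrp2 and Atxn7l3b by -0.05 ± 0.19 and -0.07 ± 0.07. Dimmer second probe sets differed by -0.32 for Sel1l, 0.11 for Nap1l1, 0.51 for Krr1 and -0.34 for Atxn7l3b, and were not tested on their own. None of the 4 genes around Phlda1 passed in limma, with 1 at an unadjusted p under 0.05, nor did the tested pair around Gpr65, with 0. With spike-in scaling, which lowers all genes, Atxn7l3b (-0.53, limma adjusted p = 0.0273) and Sel1l (-0.56, limma adjusted p = 0.0220) passed.

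Markers show what other cells the sort could have held. Double-positive markers summed to 11802 to 12186 in medium and 11600 to 12569 with dexamethasone, and none of the 8 measured was at background on all arrays. Of these 8, Cd8b1, which encodes the CD8 beta chain, fell (-0.33 ± 0.065, limma adjusted p = 0.0472), as did Ptcra, the invariant chain of the pre-T cell receptor (-0.84 ± 0.12, limma adjusted p = 0.0193). Gpr65 is also known from macrophages, natural killer cells and mature lymphocytes. Macrophage and dendritic cell markers summed to 145 to 146 in medium and 116 to 136 with dexamethasone, and 7 of 12, among them Adgre1, Itgam and Lyz2, were at background on all arrays. Natural killer and cytotoxic markers summed to 120 to 125 and 93.8 to 106, with 5 of 6 at background, among them Ncr1, Klrd1 and Prf1. Both sums were lower with dexamethasone. Only 6 of the 12 macrophage and dendritic cell markers and 1 of the 6 natural killer markers were tested, and none passed. Of the 12, 8 had a lower mean with dexamethasone and 4 a higher one. Most of the natural killer sum came from Gzma, at 89 to 91.9 in medium and 67.8 to 82.2 with dexamethasone. Without Gzma the other 5, all at background, summed to 31.4 to 33 and 23.7 to 26. Of the 6, 4 had a lower mean with dexamethasone and 2 a higher one.

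Some of the other marker sums were higher with dexamethasone. Those of 7 B cell markers ran from 1416 to 1442 in medium and 1920 to 1936 with dexamethasone. Without the immunoglobulin gene Ighm they ran from 159 to 160 and from 171 to 185. Ighm, read from the brightest of its 16 probe sets, rose (0.46 ± 0.06, limma adjusted p = 0.0123). Of the 7, 5 had a higher mean with dexamethasone and 2 a lower one. The sums of 5 markers of mature single-positive thymocytes ran from 211 to 257 and from 275 to 304. Il7r, the interleukin-7 receptor, rose (1.40 ± 0.12, limma adjusted p = 0.00341). Without Il7r the other 4 ran from 162 to 199 in medium and from 136 to 158 with dexamethasone, each with a lower mean with dexamethasone. The 4 erythroid markers overlapped, at 102 to 115 and 112 to 137, as did the 5 double-negative markers, at 93.1 to 113 and 92.3 to 110. Epithelial and stromal markers summed to less with dexamethasone, at 258 to 264 in medium and 169 to 184. Without Cldn4, which fell, they were at 53.4 to 54.6 and 81.7 to 85.8, higher with dexamethasone, so the lower sum rests on that gene. Of the 10, 8 had a higher mean with dexamethasone, and 7 were at background on all arrays, among them Krt5, Epcam and Foxn1. The part of these cells in the values of Gpr65 and Phlda1 was not tested.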

How the data were processed

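The deposited values are linear intensities from MAS5, as the submitters' processing notes and the file show; its version, settings and detection calls are not given in the sources used here. With the outer 2% of values trimmed, every array had a mean of 100.06 to 100.07, which is a global scaling. Values of 4 arrays in 2 groups were used as log2(signal + 1). The array names no genome build, so RefSeq (GRCm38.p6) served for names, for 10817 of 10833 single-gene probe sets, for gene order and for the promoter window. Of the other probe sets, 66 were controls, 396 named several genes and 1193 none.

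The brightest probe set stood for a gene. Tests used lmFit and eBayes with a trend in limma 3.58.1 under R 4.3.3, without a replicate block. The same fit was run on data simulated from its own variances with independent errors. There, 5.74% of calls were genes left unchanged, and 28.6% of changes of 0.5 on the log2 scale were called. Such data cannot show how the tests behave where arrays share technical effects. A group at or under 14 on both arrays is background, and folds against it are bounds. The number of arrays limits the precision, and an exact permutation test of 2 against 2 arrays cannot go below p = 0.333, which also counts extracts as independent. The genes and lists were chosen with earlier results of these data known, and 1 list is not reported here. Named genes are the measured relatives of both genes, the 3 largest passing changes of each other list (or the 2 largest differences), the 3 most similar genes and the nearest measured neighbours of each, and Fkbp5.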

Additional observations from a re-analysis of the deposited data

How the results depend on the processing

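Gpr65 moved by more than its spread between replicates with scaling to the hybridization controls (2.49), pseudocounts of 16 (1.59) and 32 (1.11), and values raised to background (1.76), the last chosen after seeing the data. Phlda1 did so at -2.56, -1.62 and -1.31 under the first 3 of these. Against 218 changed genes, scaling to the hybridization controls gave 2500 (42 higher, 2458 lower), centring on array medians 90 higher and 161 lower, no filter 121, a fit without the variance trend 20 and leaving out any array 32 to 68. Of the listed genes, 52 (1 higher, 51 lower), 2 and 2 to 4 passed under the first, the fourth and the last of these, against 11. With scaling to the hybridization controls Zc3h14 (-0.35), Nap1l1 (-0.26), Krr1 (-0.25), Gpr132 (-0.29), Phlda3 (-0.19) and Hspa5 (-0.031) changed sign, none past the threshold. So did Sel1l and Csrp2 without dexamethasone replicate 1 and Phlda3 without dexamethasone replicate 2. Over the arrays left out, Sel1l ran from -0.32 to 0.10, Csrp2 from -0.16 to 0.061 and Phlda3 from -0.10 to 0.59. The labels do not say that replicate numbers pair the samples, and deviations of same-numbered arrays correlated at 0.0943 across genes. With the replicate number as a block 353 genes and 12 listed genes passed, and the differences of Gpr65 and Phlda1 are the same by construction. At the 60th percentile filter Gpr65 would be left out. Signals near background limit the size given for Gpr65 in medium and for Phlda1 with dexamethasone.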
